A study of Oryctolagus cuniculus with 12 samples.

Results

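5-Fu injection was compared with no treatment in the hypertrophic scar (HS) of the rabbit ear by RNA-seq of full thickness ear tissue. The comparison holds 6 of the 12 samples in the series, 3 of the 5-Fu injection group and 3 of the untreated HS group, chosen by their labels. The other 6 samples were normal ear skin without treatment (NS, n = 3) and scar treated with drug-loaded MNs (n = 3). These MNs are microneedle patches that carry a peptide prodrug of 5-fluorouracil acetic acid (5-FuA), a derivative of 5-Fu. All animals were labelled wild type (WT), were female rabbits 10 to 12 weeks of age and were sampled on day 43, counted from the wounding of the scar groups. In the 5-Fu injection group each scar lesion received 0.1 mL of solution with 120 μg of 5-Fu on days 22, 29 and 36, while HS lesions and the unwounded NS skin received nothing. HS here therefore means an uninjected scar, and needle injury or injected volume cannot be told apart from the drug in these samples.

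A hypertrophic scar is a raised scar in which fibroblasts and myofibroblasts keep laying down collagen long after the wound has closed. 5-Fu (5-fluorouracil) is a pyrimidine antimetabolite that cells convert into fluorinated nucleotides. One of these blocks thymidylate synthase, the enzyme that supplies thymidine for DNA synthesis, and others enter RNA and DNA, so the drug acts mostly on dividing cells and is injected into scars to restrain fibroblasts.

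Scars were raised by 4 round wounds of 7 mm on the ventral side of each ear, with epidermis, dermis and perichondrium removed and new wound tissue taken off again in the weeks that followed. Each group had 3 rabbits, so same-numbered samples of different groups came from different animals. The tissue spanned both epidermal surfaces, the dermis and the ear cartilage. Of 34 marker genes for 11 cell types, 28 were matched by name and reached a mean FPKM, a level per gene length and sequencing depth, of 1, and markers of fibroblasts, keratinocytes, endothelium, macrophages, Schwann cells, adipocytes and cartilage were present in every HS sample. KRT14 of keratinocytes, MYH2 of skeletal muscle, PLIN1 of adipocytes and CNN1 of smooth muscle could not be matched to a row by name. MS4A1 of B cells was among the matched markers that stayed below that mean. In bulk tissue a smaller number of cells of a type and less RNA per cell cannot be told apart. Reads on genes numbered 11586607 to 14043667 in HS and 10796774 to 12729514 in the 5-Fu injection group, as counted back from the deposited values. The median absolute difference between 2 samples over the tested genes, on the log2(FPKM + 1) scale, was 0.16 to 0.27 within HS and 0.31 to 0.36 within the 5-Fu injection group.

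Genes were called differentially expressed (DEGs) when limma gave a Benjamini-Hochberg adjusted p under 0.05 and the log2 fold change, on the log2(FPKM + 1) scale, exceeded 1 in size. After 5-Fu injection 304 genes were called, 2.29% of the 13287 genes tested, of which 236 fell (1.78%) and 68 rose (0.512%). Among genes with a symbol, the 12 largest falls were ADAM12, PRSS35, CR2, THBS2, CMA1, COL1A1, ASPN, COL5A2, EDIL3, IGF1, LGR5 and COL8A2, and the 12 largest rises HCST, LTB, PRAM1, TBC1D10C, C1orf162, SNORD42, ANGPTL7, CST7, IL20RA, CYTIP, TSTD1 and IGFLR1. The fold of the fallen genes lay between 2.01 and 10.6 and that of the risen genes between 2.00 and 5.60, and their adjusted p ran from 0.0134 to 0.0498. Every 5-Fu injection sample lay below every HS sample in 16.4% of all tested genes and above every HS sample in 13.9%. These calls rested on a spread estimated from all 4 groups: with the HS and 5-Fu injection samples alone, limma called 0 genes, while 2956 genes had an unadjusted p under 0.05. They also rested on single libraries, and the rises and falls numbered 303 (2.28%) and 500 (3.76%) without 5-Fu injection replicate 2, 8 and 8 when replicate 1 was dropped and 6 and 6 when replicate 3 was. Dropping HS replicate 1 left 1 rise and 8 falls. Dropping HS replicate 2 or HS replicate 3 left 0 calls, although limma gave 2678 and 2576 genes, respectively, an unadjusted p under 0.05. Rescaling all values to the total of reads moved the median over all genes from 0.02 to 0.13 on the log2 scale and gave 125 rises and 160 falls, so that rises made up 43.9% of the calls instead of 22.4%. A test on the reads themselves (limma voom) gave 70 rises and 293 falls.

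The 3 injected samples differed from HS by unequal amounts. Over the 236 genes that fell, the median difference from the HS mean was -1.57 in replicate 1, -0.92 in replicate 2 and -1.68 in replicate 3 on the log2(FPKM + 1) scale, and HS samples measured against the other 2 gave -0.14 to 0.11. Replicate 2 was the injected sample closest to HS in 210 of these 236 genes and in 38 of the 68 that rose. For a rise, closest to HS means the lowest injected sample, which replicate 2 was in 31.5% of all tested genes. The matching share for falls, with replicate 2 highest, was not counted. Over the genes that rose the medians were 1.55, 1.03 and 1.40. When replicate 2 was left out of the fit, 500 genes were called lower, and replicate 2 itself lay below every HS sample in 448 of them (89.6%), against 30.8% of all tested genes. Of the 303 genes called higher without it, replicate 2 lay above every HS sample in 207 (68.3%), against 29.3% of all genes. These shares use the same HS samples as the calls and carry no test. In the 236 genes that fell, the NS samples had medians of -1.41 to -1.66 and the drug-loaded MNs samples -0.51 to -0.79. Such medians over called genes are also taken from the HS samples used for the calls and carry no test.

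**Figure D1:**
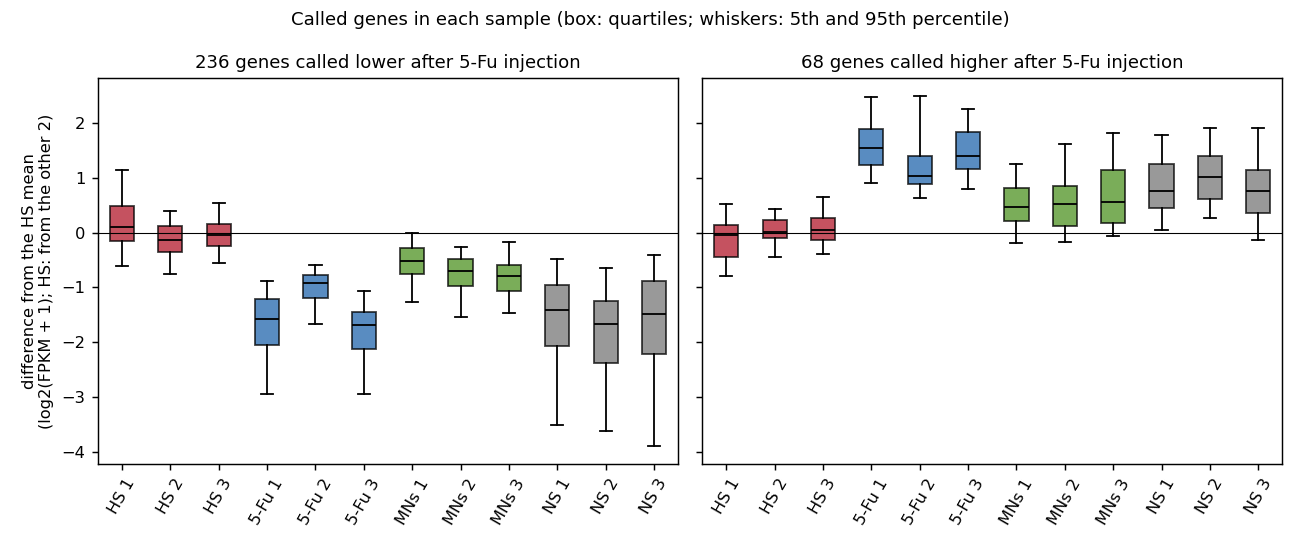
Difference from the HS mean on the log2(FPKM + 1) scale for the 236 genes called lower (left) and the 68 called higher (right) after 5-Fu injection, with 1 box per sample (quartiles, whiskers at the 5th and 95th percentile; HS samples are set against the other 2 HS samples). The box of 5-Fu injection replicate 2, with a median of -0.92 in the left panel, lies between those of HS and those of replicates 1 and 3.

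The collagens held some of the largest falls. The gene lists here and below were chosen with earlier results of these data known. Their counts beside the shares of all genes are therefore descriptions without a test. The fibrillar collagens form the load-bearing fibres of dermis and scar, and 3 of 8 tested genes of this list fell (6 without replicate 2), with a median log2 fold change of -1.78 against 0.02 over all genes. Of all tested genes 1.78% fell (3.76% without replicate 2). COL1A1, the main chain of type I collagen, listed as ENSOCUG00000012881 on chromosome 19 from 37474785 to 37489593 in the deposited table, had FPKM levels of 12719, 18970 and 15445 in HS and 1053, 9219.9 and 1438 after 5-Fu injection. Replicates 1 and 3 lay far below every HS sample, whereas replicate 2 stayed closer to the lowest HS sample than to either of them. The test passed all the same (log2 fold change -2.69 with SE 0.64, adjusted p = 0.0421 by limma). COL3A1, the chain of type III collagen, followed the same order, with FPKM of 7363, 9037 and 8388 in HS and 1283, 4609 and 1717 after 5-Fu injection (log2 fold change -1.93 with SE 0.44, adjusted p = 0.0387 by limma). COL5A2, a type V chain that sets fibril diameter, measured 865, 587 and 640.0 in HS and 80.9, 246 and 90.7 after 5-Fu injection and fell as well (log2 fold change -2.49 with SE 0.38, adjusted p = 0.0205 by limma). In all 3 genes the groups did not overlap and replicate 2 was the highest injected sample. COL5A1, the partner chain of type V collagen, measured 964, 687 and 664 in HS and 143, 593 and 267 after 5-Fu injection and missed the threshold (log2 fold change -1.42 with SE 0.42, adjusted p = 0.0708 by limma). Its replicate 2 lay just under the lowest HS sample.

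Among the other collagens 5 of 19 fell and none rose, against 1.78% and 0.512% of all genes, with a median of -0.86. Limma voom and the fit rescaled to total reads each called 1 higher. The highest member, singled out after its values were seen, was COL17A1, a collagen of basal keratinocytes, at FPKM of 51.6, 45.01 and 39.5 in HS and 126, 102 and 93.1 after 5-Fu injection. Every injected sample lay above HS, without passing (log2 fold change 1.21 with SE 0.32, adjusted p = 0.0534 by limma). COL12A1, a collagen that decorates fibril surfaces, was at FPKM of 199, 160.3 and 234 in HS and 44.0, 68.8 and 35.3 after 5-Fu injection. The injected samples lay close together and well below HS (log2 fold change -2.02 with SE 0.24, adjusted p = 0.0134 by limma). COL8A2, a short-chain network collagen, was at 73.0, 85.6 and 72.3 in HS and 20.5, 22.3 and 7.83 after 5-Fu injection, and here replicate 2 lay with replicate 1 (log2 fold change -2.24 with SE 0.33, adjusted p = 0.0205 by limma). COL16A1 and COL6A3 fell at -1.52 and -1.35 on the log2 scale (limma adjusted p = 0.0387 and 0.0387), and a second locus of the table also carries the name COL6A3. The basement membrane collagen COL4A1 overlapped between groups, with FPKM of 699, 406 and 469.8 in HS and 118, 548 and 338 after 5-Fu injection (log2 fold change -0.86 with SE 0.45, adjusted p = 0.254 by limma). The share of all reads on genes taken by the matrix lists together was 23.3%, 27.01% and 24.7% in HS and 4.74%, 16.7% and 6.08% after injection, while NS samples had 3.74% to 4.96% and drug-loaded MNs samples 13.1% to 17.9%. Replicate 1 lay within the NS range and replicate 3 a little above it, while replicate 2 lay within the range of the drug-loaded MNs samples.

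**Figure D2:**
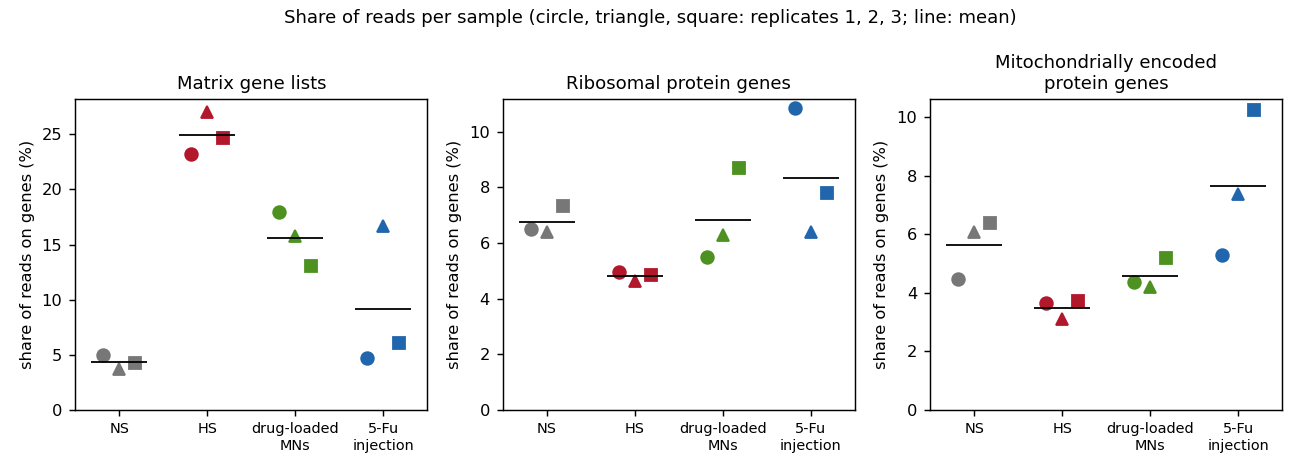
Share of reads on genes, in percent, taken by the matrix gene lists, the ribosomal protein genes and the mitochondrially encoded protein genes in each of the 12 samples (1 symbol per sample, line at the group mean). For matrix genes the 5-Fu injection samples spread from 4.74% to 16.7%, and for the other panels each injected sample lies above each HS sample.

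Enzymes that modify and crosslink collagen, acting before and after its secretion, held 3 falls among 27 genes (13 without replicate 2), against 1.78% and 3.76% of all genes, and 17 lay below HS in all 3 injected samples, against 16.4%, with a median log2 fold change of -0.88. LOXL1, a lysyl oxidase that crosslinks collagen and elastin, was at FPKM of 487, 399 and 336 in HS and 102, 224 and 114 after 5-Fu injection (log2 fold change -1.54 with SE 0.28, adjusted p = 0.0267 by limma). ADAMTS2, which removes the N-terminal propeptide of procollagen, measured 93.5, 81.1 and 89.5 in HS and 19.8, 60.9 and 23.4 after 5-Fu injection (log2 fold change -1.49 with SE 0.34, adjusted p = 0.0387 by limma). The third was P4HA3, a subunit of prolyl 4-hydroxylase, with a log2 fold change of -1.44 (limma adjusted p = 0.0368). LOX itself, the founding member of the crosslinking family, did not pass the test although its groups did not overlap, at 128, 216 and 260.2 in HS and 80.9, 88.4 and 89.3 after 5-Fu injection (log2 fold change -1.16 with SE 0.32, adjusted p = 0.0615 by limma), and neither did P4HA1 at -1.10 (limma adjusted p = 0.0551). PLOD2, the lysyl hydroxylase linked to fibrotic crosslinks, was at 13.98, 11.3 and 29.3 in HS and 20.99, 7.46 and 20.04 after 5-Fu injection and overlapped between the groups (limma adjusted p = 0.847).

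Among the proteoglycan, matricellular and elastic fibre lists, with 12, 22 and 15 genes tested, none rose. Over all tested genes 0.512% rose, and a count of 0 in lists of this size lies near that share. Of the small leucine-rich and other proteoglycans, which coat and space collagen fibrils, 4 of 12 fell (7 without replicate 2, and 1 by limma voom on reads). Over all tested genes 1.78% fell, and 3.76% without replicate 2. ASPN (asporin) had the largest change among the 4, at FPKM of 189, 182 and 213 in HS and 16.2, 56.7 and 30.3 after 5-Fu injection (log2 fold change -2.63 with SE 0.37, adjusted p = 0.0184 by limma). LUM (lumican) was at 3962, 3257 and 2775 in HS and 315, 2101 and 660.1 after 5-Fu injection, a wide spread among injected samples (log2 fold change -2.12 with SE 0.53, adjusted p = 0.0492 by limma). BGN (biglycan) was just inside the threshold at -1.04 (limma adjusted p = 0.0498), and DCN (decorin), at 1619.6, 1746 and 1578 in HS and 814, 1163 and 486 after 5-Fu injection, was just outside it (limma adjusted p = 0.0585). VCAN (versican), a large hyaluronan-binding proteoglycan of young matrix, was at 244, 92.0 and 113 in HS and 3.45, 89.2 and 16.4 after 5-Fu injection. Its injected samples ran from far below HS in replicate 1 to the lower edge of HS in replicate 2, and it was not called (log2 fold change -2.85 with SE 0.92, adjusted p = 0.0895 by limma).

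Matricellular proteins, which tune cell contacts rather than bear load, included 5 falls among 22 genes (12 without replicate 2), against 1.78% (3.76%) of all genes. THBS2 (thrombospondin 2) had FPKM of 1180, 404 and 416 in HS and 43.6, 173 and 52.6 after 5-Fu injection, with HS replicate 1 well above the other HS samples (log2 fold change -2.97 with SE 0.54, adjusted p = 0.0267 by limma). CCN4 and SPON1 fell at -2.18 and -2.002 on the log2 scale (limma adjusted p = 0.0337 and 0.0214). POSTN (periostin) and TNC (tenascin C), both classical scar genes, did not pass the test. POSTN measured 172, 455 and 322 in HS and 32.9, 236 and 81.6 after 5-Fu injection, and replicate 2 lay inside the HS range (limma adjusted p = 0.101). TNC measured 390.3, 432 and 479 in HS and 26.8, 267 and 122.6 after 5-Fu injection, with all injected samples below HS but widely spread among themselves (limma adjusted p = 0.0978). The elastic fibre list held 9 falls among 15 (10 without replicate 2), against the same shares of all genes, at a median of -1.63. FBN1, the fibrillin that builds microfibrils, was at 158, 161 and 173 in HS and 50.1, 68.3 and 35.4 after 5-Fu injection, with narrow groups that lay far apart (log2 fold change -1.71 with SE 0.24, adjusted p = 0.0184 by limma). MFAP4, a microfibril-associated protein, measured 2369, 2849 and 2350.5 in HS and 413, 1359.7 and 575 after 5-Fu injection (log2 fold change -1.87 with SE 0.36, adjusted p = 0.0272 by limma). FBLN1 (fibulin 1), LTBP2, a microfibril-bound protein, and FBN2, the second fibrillin, fell by similar amounts, at -1.98, -1.97 and -1.93 on the log2 scale (limma adjusted p = 0.0266, 0.0333 and 0.0267). None of 14 genes of hyaluronan synthesis, binding and breakdown was called by limma, and 4 lower had an unadjusted p under 0.05, against 14.4% of all genes.

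**Figure D3:**
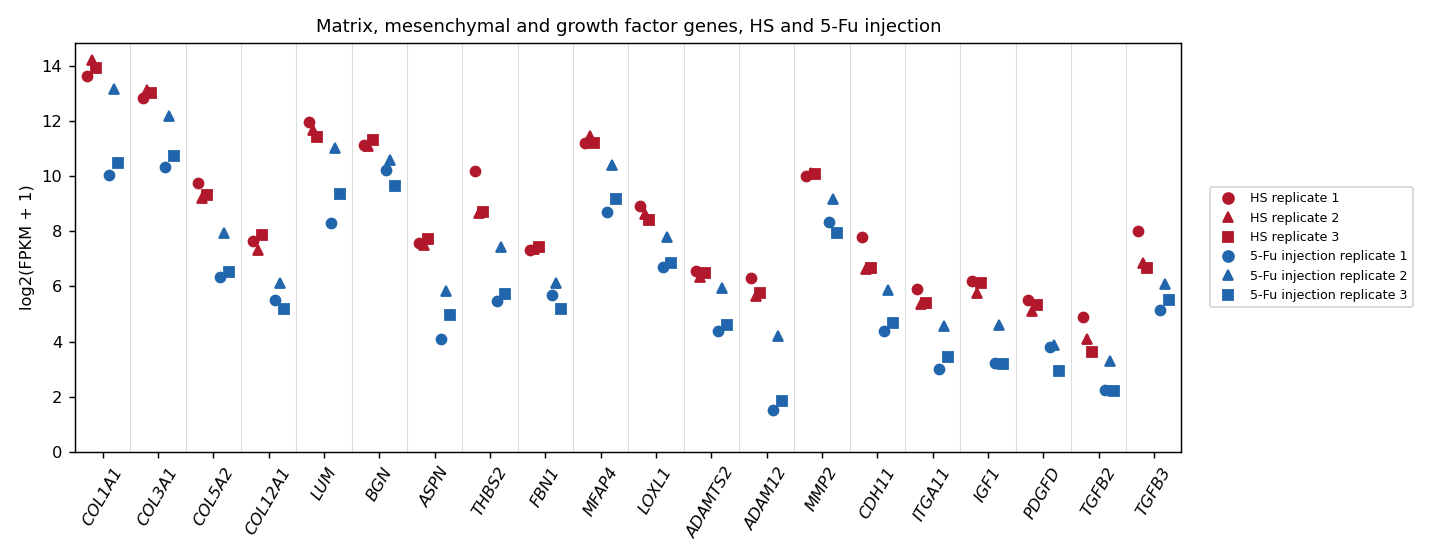
log2(FPKM + 1) of 20 matrix, mesenchymal and growth factor genes in the 3 HS samples (red) and the 3 5-Fu injection samples (blue), 1 symbol per replicate. In all 20 genes the blue symbols lie below the red ones, and the triangle of 5-Fu injection replicate 2 is the highest blue symbol, as in COL1A1 with an FPKM of 9219.9.

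Proteases and mesenchymal cell genes gave a more mixed picture. Of 22 metalloproteinases and inhibitors, 4 fell, against 1.78% of all genes, and the median log2 fold change was -0.34. ADAM12, a membrane metalloproteinase of activated mesenchyme, had the largest fall of all DEGs, with FPKM of 79.0, 49.9 and 53.9 in HS and 1.86, 17.6 and 2.56 after 5-Fu injection. It was lowest in replicates 1 and 3 and intermediate in replicate 2 (log2 fold change -3.40 with SE 0.60, adjusted p = 0.0257 by limma). MMP2, the gelatinase made by fibroblasts, was at 1020.1, 1118 and 1074 in HS and 322, 579 and 244.7 after 5-Fu injection (log2 fold change -1.58 with SE 0.31, adjusted p = 0.028 by limma). MMP13, a collagenase, lay below HS in every injected sample, at 41.7, 18.5 and 38.1 in HS and 2.59, 7.58 and 4.1 after 5-Fu injection, but was not called (limma adjusted p = 0.081). MMP9, the gelatinase of neutrophils and keratinocytes, and TIMP1, a secreted inhibitor, overlapped between groups, with TIMP1 at 377, 344 and 512 in HS and 164, 767 and 837 after 5-Fu injection.

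Genes of contraction lay on both sides of HS. Of the myofibroblast and contractile list 3 of 20 genes fell (1.78% of all genes did), 7 lay below every HS sample and 2 above (16.4% and 13.9% of all genes), and the median log2 fold change was -0.17. ACTA2, smooth muscle actin and the usual myofibroblast marker, was at FPKM of 393, 204 and 216 in HS and 221, 331 and 640.4 after 5-Fu injection, a log2 fold change of 0.47 with a 95% interval of -0.75 to 1.70. It is also a gene of vessel walls, whose other marker MYH11 had 29.2, 53.6 and 45.8 in HS and 106, 47.8 and 92.3 after 5-Fu injection. Replicate 3 was highest for ACTA2 and replicate 1 for MYH11, and neither gene separated the groups. The falls were CDH11 (cadherin 11, an adhesion molecule of mesenchyme), ITGA11 (a collagen-binding integrin of fibroblasts) and CNN3 (calponin 3, an actin-binding protein). CDH11 was at 220.4, 97.8 and 101 in HS and 19.9, 57.7 and 24.5 after 5-Fu injection (log2 fold change -2.05 with SE 0.37, adjusted p = 0.0267 by limma). ITGA11 was at 58.9, 40.7 and 41.02 in HS and 7.02, 22.7 and 9.94 after 5-Fu injection (log2 fold change -1.89 with SE 0.35, adjusted p = 0.0267 by limma). Both followed the order seen for collagen, with replicate 2 nearest HS. CNN3 had a log2 fold change of -1.13 (limma adjusted p = 0.0295). FAP, the fibroblast activation protein, measured 29.0, 42.0 and 40.6 in HS and 24.8, 22.4 and 12.7 after 5-Fu injection and missed the threshold (limma adjusted p = 0.0699). Among mesenchymal regulators PRRX1 and RUNX2 fell, at -1.28 and -1.10 (limma adjusted p = 0.0221 and 0.0387). The homeobox gene TLX1 rose, with injected samples within a very narrow range, at 7.36, 6.32 and 6.17 in HS and 16.4, 16.4 and 16.3 after 5-Fu injection (log2 fold change 1.19 with SE 0.15, adjusted p = 0.0134 by limma). PRSS35 and EDIL3, a secreted protease-like protein and a matrix protein of vessels, also belonged to the largest falls, at -3.23 and -2.40 (limma adjusted p = 0.028 and 0.0214).

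TGF-beta is the main driver of collagen synthesis in scars, and 4 of 28 genes of its pathway fell (3 without replicate 2 and 2 after rescaling, against 1.78% of all genes), with 10 below HS in all 3 injected samples, against 16.4% of all genes. Of the ligands, TGFB2 was at FPKM of 29.0, 16.0 and 11.4 in HS and 3.71, 8.81 and 3.67 after 5-Fu injection (log2 fold change -1.63 with SE 0.37, adjusted p = 0.0387 by limma) and TGFB3 at 255, 113 and 101 in HS and 34.1, 67.3 and 44.7 after 5-Fu injection (log2 fold change -1.59 with SE 0.38, adjusted p = 0.0424 by limma). Both ligands were lower in every injected sample than in any HS sample, and HS replicate 1 was the highest of all. TGFB1, the ligand most studied in fibrosis, overlapped between groups at 117, 73.6 and 71.8 in HS and 61.7, 89.9 and 46.7 after 5-Fu injection (limma adjusted p = 0.378), and a second locus carries its name. The other falls were LTBP1, which anchors latent TGF-beta in the matrix, and INHBA, a chain of activin, at -1.31 and -1.26 (limma adjusted p = 0.0372 and 0.0487). The receptor TGFBR1 and the target gene SMAD7 did not pass, at -0.66 and -0.20 on the log2 scale (limma adjusted p = 0.183 and 0.563).

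Growth factors of the IGF, PDGF and FGF families held 7 falls among 26 genes (10 without replicate 2), against 1.78% (3.76%) of all genes. IGF1, a growth factor that fibroblasts secrete, listed as ENSOCUG00000014689 on chromosome 4 from 81676119 to 81750443, was at FPKM of 72.5, 54.0 and 68.0 in HS and 8.35, 23.6 and 8.21 after 5-Fu injection (log2 fold change -2.35 with SE 0.35, adjusted p = 0.0205 by limma). No injected sample reached the HS range, and replicate 2 was the highest of them. Its receptor IGF1R measured 19.3, 15.1 and 17.1 in HS and 4.7, 9.27 and 4.92 after 5-Fu injection (log2 fold change -1.36 with SE 0.27, adjusted p = 0.029 by limma), and the adaptor IRS1 downstream of it fell as well, at -1.41 (limma adjusted p = 0.0272). PDGFD was at 44.3, 33.4 and 38.8 in HS and 12.9, 13.7 and 6.65 after 5-Fu injection, with replicate 2 beside replicate 1 (log2 fold change -1.77 with SE 0.31, adjusted p = 0.0257 by limma), whereas the receptor PDGFRB had its replicate 2 within the HS range (limma adjusted p = 0.2). In the Wnt pathway 3 of 42 genes fell (7 without replicate 2), against the same shares of all genes. The 3 were the secreted DKK3 and the receptors FZD1 and LRP6, at -1.48, -1.25 and -1.25 (limma adjusted p = 0.0451, 0.0224 and 0.0205). WNT5A, a ligand of the non-canonical branch, was at 49.9, 9.24 and 12.5 in HS and 2.45, 6.46 and 3.26 after 5-Fu injection, lower in every injected sample but with HS replicate 1 far above the rest, and was not called (limma adjusted p = 0.0675). LGR5, a receptor for R-spondins and a stem cell marker in hair follicles, measured 20.5, 22.3 and 18.7 in HS and 1.07, 7.39 and 3.53 after 5-Fu injection (log2 fold change -2.32 with SE 0.40, adjusted p = 0.024 by limma). The secreted Wnt modulator SFRP2, at 375, 1829 and 1360 in HS and 356, 469 and 223 after 5-Fu injection, and the target gene AXIN2, at a log2 fold change of -0.37, did not pass (limma adjusted p = 0.11 and 0.33).

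Genes on which 5-Fu acts, or that handle it, were examined next. Of 26 fluoropyrimidine targets and enzymes, 1 rose and none fell, against 0.512% and 1.78% of all genes. In this list 3 lay above and 3 below every HS sample (13.9% and 16.4% of all genes), and the median was 0.06. The gene that rose was UPP1, uridine phosphorylase, which can turn 5-Fu into a nucleoside, at FPKM of 6.96, 5.48 and 5.97 in HS and 15.2, 10.9 and 15.7 after 5-Fu injection (log2 fold change 1.06 with SE 0.17, adjusted p = 0.0214 by limma). TYMS, thymidylate synthase and the classical target, was at 10.8, 11.7 and 12.4 in HS and 9.09, 14.5 and 14.6 after 5-Fu injection, a log2 fold change of 0.09 with a 95% interval of -0.49 to 0.67, and a second locus carries its name. DPYD, the enzyme that degrades 5-Fu, stayed at or under an FPKM of 0.675 in these 6 samples and was not tested.

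Genes of division and of the p53 response gave no calls, nor did limma voom on the reads call any gene of the 15 lists that held 0 calls. Without replicate 2, limma did call genes in some of these lists: 2 higher and 1 lower in the p53 list, 3 higher among ribosomal proteins, 4 higher in the cornified envelope list, 2 lower among macrophage genes and 2 lower in the hyaluronan list. It also called 1 higher each among apoptosis, oxidative phosphorylation, endothelial and Schwann cell genes, and 1 lower each among immediate-early and Schwann cell genes. After rescaling to total reads it called 2 higher among ribosomal proteins and 1 higher each in the p53, cornified envelope and endothelial lists. None of 45 cell cycle genes was called by limma, and 1 lower had an unadjusted p under 0.05, against 14.4% of all genes. The median log2 fold change was -0.07, and 0.05 after rescaling to total reads. MKI67, a protein of cycling cells, had FPKM of 5.65, 9.18 and 8.75 in HS and 4.17, 9.4 and 7.05 after 5-Fu injection, with replicate 1 below HS, replicate 3 within its range and replicate 2 just above it (95% interval of the log2 fold change -0.92 to 0.51). TOP2A, needed to separate chromosomes, showed 5.27, 6.17 and 8.23 in HS and 2.91, 6.18 and 3.51 after 5-Fu injection. By sample, the median of the list was -0.39, 0.17 and -0.04 from the HS mean, which places replicate 1 lowest, and the HS samples lay at -0.13 to 0.07. Of 25 p53 response genes 0 were called by limma, with 4 on each side at an unadjusted p under 0.05. Over all genes 11.6% were higher and 14.4% lower at that level. DDB2, a DNA damage sensor, came nearest, at 18.3, 20.9 and 21.7 in HS and 52.0, 33.1 and 37.5 after 5-Fu injection, past the adjusted p but short of the fold (log2 fold change 0.95 with SE 0.20, adjusted p = 0.0333 by limma). CDKN1A, the p53-induced cell cycle inhibitor, and MDM2, the p53 antagonist, gave 0.66 and -0.28 (limma adjusted p = 0.182 and 0.267). None of 22 apoptosis regulators was called by limma, with 1 higher and 3 lower at an unadjusted p under 0.05, against the same shares of all genes. The highest of them, BIRC3, an inhibitor of apoptosis induced by NF-kB, was at 7.16, 5.92 and 5.95 in HS and 33.7, 13.8 and 19.1 after 5-Fu injection (limma adjusted p = 0.0764).

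Transcripts of ribosomal proteins, the parts of the translation machinery, were higher in the injected samples by less than the fold threshold. Of 73 ribosomal protein genes, 59 lay above every HS sample in all 3 injected samples, against 13.9% of all tested genes, and the median log2 fold change was 0.64. None was called by limma, and 48 had an unadjusted p under 0.05, against 11.6% of all genes that were higher at that level. The median by sample was 1.06, 0.33 and 0.56, with HS samples at -0.06 to 0.08. Replicate 1 was the highest and replicate 2 the lowest of the injected samples. RPL3 measured 600.2, 644 and 668 in HS and 1304, 801 and 723 after 5-Fu injection, and FAU, the highest of the list, 45.9, 36.7 and 43.5 in HS and 112, 65.9 and 77.3 after 5-Fu injection (limma adjusted p = 0.0387). A second locus carries the name FAU, and since ribosomal protein genes have many processed copies, reads may be split between loci. The share of reads on these genes was 4.97%, 4.62% and 4.83% in HS and 10.8%, 6.38% and 7.78% after injection. It was 6.40% to 7.32% in NS and 5.48%, 6.29% and 8.68% in the drug-loaded MNs samples, also above HS. Genes of ribosome biogenesis had 0 calls by limma among 36 and a median of 0.18. In that list 6 were higher at an unadjusted p under 0.05, against 11.6% of all genes. Nuclear genes of oxidative phosphorylation had 30 of 62 above every HS sample, against 13.9% of all genes. They had 0 calls by limma and a median of 0.37, and 25 higher had an unadjusted p under 0.05, against 11.6% of all genes.

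Mitochondrially encoded protein genes, a list added after the values had been seen, took 3.66%, 3.1% and 3.73% of reads in HS and 5.29%, 7.38% and 10.3% after injection, highest in replicate 3. The NS samples had 4.48% to 6.40%, a range that holds injected replicate 1, and the drug-loaded MNs samples 4.21% to 5.18%. ND3, a subunit of respiratory complex I, was the member that rose, at FPKM of 1906, 1221 and 1432 in HS and 3340.1, 2742 and 6187 after 5-Fu injection (log2 fold change 1.36 with SE 0.34, adjusted p = 0.0478 by limma). Limma voom and the fit rescaled to total reads each called 3 of the 13 members higher. COX1 and ATP6 lay above HS in every injected sample without passing (limma adjusted p = 0.0754 and 0.0982). The 3 injected samples were ranked differently here than for ribosomal proteins, where replicate 1 was highest. Genes of the secretory pathway, through which collagen leaves the cell, included 4 falls among 35 (9 without replicate 2) and 23 below every HS sample. Of all tested genes 1.78% fell (3.76% without replicate 2), and 16.4% lay below every HS sample. SEC24D, a coat protein needed for procollagen export, was at 60.5, 70.0 and 61.9 in HS and 17.1, 37.5 and 16.3 after 5-Fu injection (log2 fold change -1.50 with SE 0.29, adjusted p = 0.0272 by limma). TRAM2, CREB3L2 and SEC23A, all known from collagen secretion, fell at -1.63, -1.16 and -1.14 (limma adjusted p = 0.0272, 0.0479 and 0.0295). The chaperone HSPA5 did not pass, at 287, 395 and 357 in HS and 156, 314 and 299 after 5-Fu injection (limma adjusted p = 0.268), and DDIT3, a stress-induced transcription factor, was higher at 0.78, past the adjusted p but short of the fold (limma adjusted p = 0.0255).

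Lymphocyte genes were higher in the injected samples, above all in replicate 1. Of 25 T and NK cell genes, 2 rose (9 without replicate 2), against 0.512% (2.28%) of all genes. In all 3 injected samples 20 lay above every HS sample (13.9% of all genes did), and the median log2 fold change was 1.77. HCST, an adaptor of activating receptors on T and NK cells, had FPKM of 15.6, 15.1 and 15.2 in HS and 188, 60.9 and 64.4 after 5-Fu injection (log2 fold change 2.49 with SE 0.62, adjusted p = 0.0487 by limma). LTB (lymphotoxin beta), a cytokine of lymphocytes, measured 5.08, 7.55 and 9.71 in HS and 103, 31.5 and 21.4 after 5-Fu injection (log2 fold change 2.36 with SE 0.55, adjusted p = 0.0389 by limma). Limma voom called 0 higher and 1 lower in this list, and the fit without replicate 2 also called 1 lower. The lowest member, singled out after its values were seen, was LEF1, a transcription factor of T cells that fibroblasts and hair follicles also use, at 13.5, 13.97 and 18.9 in HS and 5.63, 8.87 and 7.68 after 5-Fu injection, below HS in every injected sample and past the adjusted p but short of the fold (log2 fold change -0.97 with SE 0.23, adjusted p = 0.0389 by limma). For HCST and LTB every injected sample lay above HS and replicate 1 stood far above the other 2, and neither was called by limma voom on the reads (adjusted p = 0.0547 and 0.0603). CD3E, a chain of the T cell receptor complex, was at 0.582, 1.31 and 2.05 in HS and 41.6, 5.72 and 4.62 after 5-Fu injection, again led by replicate 1, and missed the threshold (log2 fold change 2.39 with SE 0.72, adjusted p = 0.0766 by limma). The list median by sample was 3.08, 0.99 and 1.01 from the HS mean. CD8A, the marker of cytotoxic T cells, was above HS in replicate 1 alone, at 0.317, 0.731 and 1.67 in HS and 6.17, 0.76 and 0.364 after 5-Fu injection. B and plasma cell genes showed the same single sample. JCHAIN, the joining chain of antibody made by plasma cells, was at 37.9, 85.7 and 88.0 in HS and 1057, 60.5 and 73.2 after 5-Fu injection, and CD79B, a B cell receptor subunit, at 0.67, 0.91 and 0.337 in HS and 24.2, 1.21 and 2.14 after 5-Fu injection (limma adjusted p = 0.459 and 0.193). MS4A1, a surface marker of B cells, was at FPKM of 0.308, 0.175 and 0 in HS and 3.62, 0 and 0.936 after 5-Fu injection, highest in replicate 1. CR2, a complement receptor of B cells and follicular dendritic cells, fell, at 79.6, 6.11 and 6.31 in HS and 0.489, 1.25 and 0.861 after 5-Fu injection, but HS replicate 1 was far above the other HS samples (log2 fold change -3.13 with SE 0.78, adjusted p = 0.0487 by limma).

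None of 31 macrophage and dendritic cell genes was called by limma. At an unadjusted p under 0.05 there were 5 higher and 4 lower, against 11.6% and 14.4% of all genes. CD68, a lysosomal macrophage protein, was higher at 45.3, 51.1 and 46.1 in HS and 112, 87.7 and 52.3 after 5-Fu injection, while CD163, a scavenger receptor of tissue macrophages, was lower at 17.9, 12.4 and 15.1 in HS and 4.9, 11.1 and 4.77 after 5-Fu injection (limma adjusted p = 0.243 and 0.119). The groups did not overlap for either gene. C1QB, a complement chain of macrophages, was at 14.1, 51.1 and 44.96 in HS and 22.98, 30.1 and 2.11 after 5-Fu injection, lowest in replicate 3 (limma adjusted p = 0.4). Among granulocyte and mast cell genes PRAM1, an adaptor of myeloid cells, rose, at 2.43, 3.53 and 2.97 in HS and 12.2, 21.6 and 13.8 after 5-Fu injection, highest in replicate 2 (log2 fold change 2.05 with SE 0.47, adjusted p = 0.0387 by limma). CMA1, the chymase of mast cells, fell, at 18.6, 7.7 and 18.3 in HS and 0.603, 1.76 and 0.874 after 5-Fu injection (log2 fold change -2.88 with SE 0.47, adjusted p = 0.0214 by limma), while KIT, the mast cell growth factor receptor, which other skin cells also express, was at 7.2, 6.63 and 7.71 in HS and 5.34, 7.64 and 5.83 after 5-Fu injection (limma adjusted p = 0.497). S100A8, abundant in neutrophils and in stressed keratinocytes, varied within both groups, at 1653, 32.6 and 282 in HS and 162, 1162 and 3865 after 5-Fu injection.

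Of the inflammatory cytokine and receptor list, 1 of 32 rose, against 0.512% of all genes. NFKBIA, the inhibitor of NF-kB that NF-kB itself induces, listed as ENSOCUG00000015642 on chromosome 17 from 55106578 to 55109740, had FPKM of 49.2, 47.3 and 47.6 in HS and 108, 137 and 115 after 5-Fu injection (log2 fold change 1.30 with SE 0.16, adjusted p = 0.0134 by limma). Both groups were narrow and lay far apart. IL1B was higher mostly in replicates 2 and 3, at 0.844, 0.948 and 0.541 in HS and 1.52, 9.26 and 10.2 after 5-Fu injection, and IL6 in replicate 3, at 0.0828, 0.236 and 0.657 in HS and 0.143, 0.608 and 4.96 after 5-Fu injection (limma adjusted p = 0.145 and 0.428). TNF was highest in replicate 1, at 0.389, 0.211 and 0.392 in HS and 3.41, 0.816 and 0.646 after 5-Fu injection. None of 26 interferon response genes was called by limma, and 1 on each side had an unadjusted p under 0.05. Over all genes 11.6% were higher and 14.4% lower at that level. ISG15 was above HS in all injected samples, at 9.02, 8.32 and 8.5 in HS and 57.8, 42.4 and 35.1 after 5-Fu injection, but did not pass (log2 fold change 2.23 with SE 1.08, adjusted p = 0.216 by limma), and the NS samples had a mean FPKM of 158. The median of the interferon list by sample was 1.30, 0.69 and 0.13, highest in replicate 1. None of 18 immediate-early genes was called by limma, with 1 higher and 1 lower at an unadjusted p under 0.05, against the same shares of all genes. FOS, their best known member, was at 7.61, 4.69 and 9.34 in HS and 10.5, 10.2 and 38.1 after 5-Fu injection, highest in replicate 3 (limma adjusted p = 0.212).

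**Figure D4:**
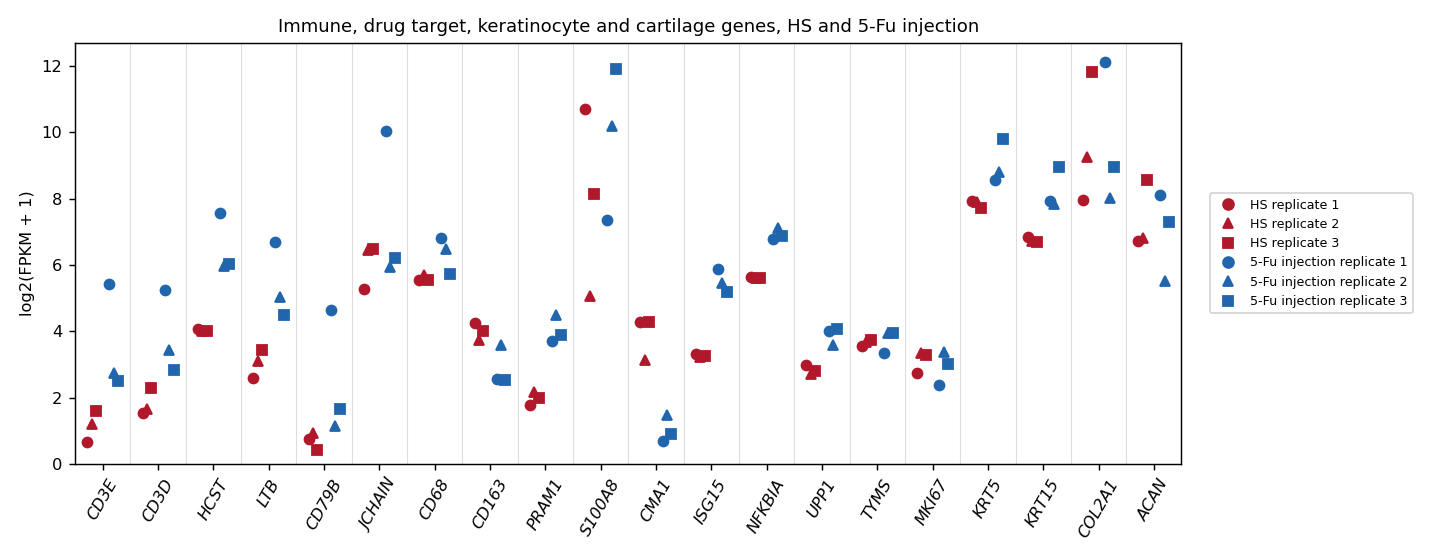
log2(FPKM + 1) of 20 immune, drug target, proliferation, keratinocyte and cartilage genes in the 3 HS samples (red) and the 3 5-Fu injection samples (blue), 1 symbol per replicate. CD79B and JCHAIN are far higher in replicate 1 than in any other sample, NFKBIA is evenly higher in all 3 injected samples, and cartilage genes such as COL2A1 spread as widely within HS as within the 5-Fu injection group.

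Epidermal genes included a single call, a rise, and 0.512% of all tested genes rose. Of 29 keratinocyte genes, 1 rose, KRT15, a keratin of basal cells and follicle stem cells, at FPKM of 114, 104 and 102 in HS and 244, 227 and 491 after 5-Fu injection (log2 fold change 1.49 with SE 0.35, adjusted p = 0.0426 by limma). KRT5, the keratin of basal cells, was higher in each injected sample, at 243, 239 and 207 in HS and 375, 445 and 888 after 5-Fu injection, without passing (limma adjusted p = 0.0707). KRT10, the suprabasal keratin, was highest in replicate 1, at 794, 588 and 613 in HS and 2403, 1076 and 770.3 after 5-Fu injection (limma adjusted p = 0.226). None of 31 genes of the cornified envelope was called by limma. In this list 8 higher and 1 lower had an unadjusted p under 0.05, against 11.6% and 14.4% of all genes. Hair follicle keratins varied widely within HS. KRT71, of the inner root sheath, was at 21.9, 305 and 454 in HS and 52.3, 58.0 and 94.4 after 5-Fu injection, so that HS replicate 1 lay below the injected samples and the other HS samples above them. Of the sebaceous gland and hair follicle list 1 of 18 genes fell, LGR5, against 1.78% of all genes.

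Cartilage content varied within the groups. COL2A1, the collagen of cartilage, had FPKM of 247, 612 and 3607 in HS and 4429, 259.6 and 491 after 5-Fu injection, and ACAN (aggrecan) 105, 111 and 377 in HS and 273, 44.9 and 156 after 5-Fu injection, and the median of the cartilage list ran from -2.40 to 2.43 in HS and from -1.42 to 0.87 after injection. The part of cartilage content in other results was not tested. MATN4, a matrilin, was the 1 of 19 cartilage genes to fall, against 1.78% of all genes. It was at 21.9, 13.3 and 26.7 in HS and 3.75, 5.57 and 3.66 after 5-Fu injection (log2 fold change -1.99 with SE 0.46, adjusted p = 0.0408 by limma). Endothelial genes gave 0 calls by limma among 27, with 7 higher and 1 lower at an unadjusted p under 0.05. Over all genes 11.6% were higher and 14.4% lower at that level. PECAM1, an adhesion molecule of endothelium, was at 89.3, 66.9 and 76.0 in HS and 105, 103 and 132 after 5-Fu injection, and VWF (von Willebrand factor) at 159, 195 and 203 in HS and 187, 211 and 169 after 5-Fu injection (limma adjusted p = 0.0603 and 0.95). Schwann cell, adipocyte and skeletal muscle lists also held 0 calls by limma, among 17, 19 and 10 tested genes. At an unadjusted p under 0.05 these had 0 higher and 2 lower, 1 higher and 2 lower, and 1 higher and 0 lower. The shares over all genes are those given for the endothelial list. ADIPOQ, the adipocyte hormone adiponectin, overlapped between the groups, at 423, 342 and 446 in HS and 325, 581 and 410.1 after 5-Fu injection. Of the hypoxia and oxidative stress list GPX1, a glutathione peroxidase, rose, at 814, 759 and 727 in HS and 1860, 1266 and 1538 after 5-Fu injection (log2 fold change 1.00 with SE 0.21, adjusted p = 0.0337 by limma), and a second locus carries its name. HIF1A was lower in every injected sample, at 257, 247 and 272 in HS and 48.5, 162 and 163 after 5-Fu injection, without passing (limma adjusted p = 0.103).

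**Figure D5:**
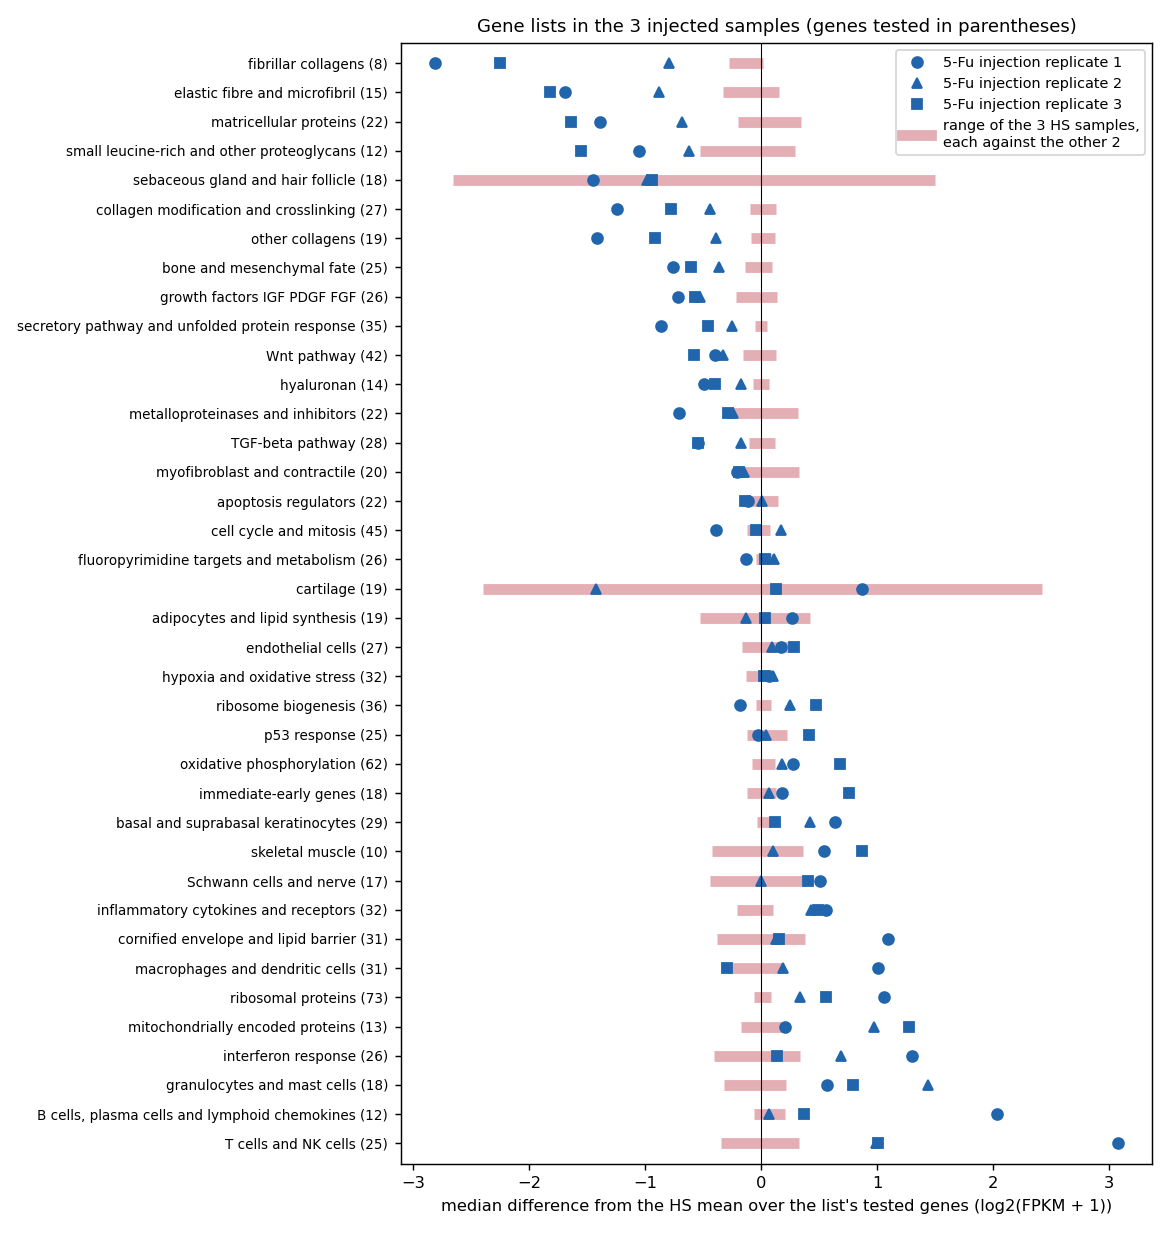
Median difference from the HS mean over the tested genes of each of 37 gene lists and of the mitochondrially encoded genes, on the log2(FPKM + 1) scale, for the 3 injected samples (symbols) and the range of the 3 HS samples, each set against the other 2 (bars). The fibrillar collagens lie at -2.82, -0.79 and -2.26 in replicates 1, 2 and 3, T and NK cells at 3.08, 0.99 and 1.01, and the HS bar of cartilage runs from -2.40 to 2.43.

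Several of the largest rises belonged to none of the cell lists. IGFLR1, a receptor of the TNF receptor family, had FPKM of 5.06, 5.18 and 5.35 in HS and 22.9, 12.3 and 15.6 after 5-Fu injection (log2 fold change 1.49 with SE 0.20, adjusted p = 0.0184 by limma). IL20RA, a receptor chain for IL-20 family cytokines on epithelium, measured 8.09, 7.54 and 8.39 in HS and 41.1, 16.3 and 25.7 after 5-Fu injection (log2 fold change 1.58 with SE 0.32, adjusted p = 0.0295 by limma), and TSTD1, a sulfurtransferase domain protein, 10.8, 11.2 and 12.4 in HS and 46.6, 35.3 and 28.5 after 5-Fu injection (log2 fold change 1.58 with SE 0.23, adjusted p = 0.0205 by limma). All 3 were nearly constant in HS and separate from it in every injected sample. ANGPTL7, an angiopoietin-like secreted protein, was at 76.5, 107 and 227 in HS and 552, 296 and 616 after 5-Fu injection (log2 fold change 1.91 with SE 0.45, adjusted p = 0.0421 by limma), with NS at a mean of 1238. TBC1D10C, CST7 and CYTIP, all known from leukocytes, rose at 2.01, 1.64 and 1.58, and C1orf162 at 1.97 (limma adjusted p = 0.0364, 0.0408, 0.0424 and 0.0382). SNORD42, a small nucleolar RNA without a poly(A) tail, had 4.27, 8.12 and 3.77 in HS and 9.85, 22.4 and 50.9 after 5-Fu injection in these poly(A)-selected libraries (log2 fold change 1.95 with SE 0.46, adjusted p = 0.0425 by limma).

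The genes in which replicate 2 lay farthest from both other injected samples are given as a description, with no test. LYZ (lysozyme) was at FPKM of 2.69, 85.5 and 1.19 and MMP3 (stromelysin 1) at 0.713, 47.2 and 2.58 in replicates 1, 2 and 3, against 21.2, 18.7 and 25.4 and 1.96, 0.687 and 2.23 in HS. PLEKHB2 is listed at 0 in replicates 1 and 3 and at 17.7 in replicate 2, beside HS at 29.8, 17.7 and 19.4. COL1A1, GUCA2A, a gut peptide hormone precursor, and 5_8S_rRNA were the other 3 in which replicate 2 was highest. On the low side stood FRZB, a Wnt antagonist of cartilage, at 265, 10.3 and 285, CLEC3A, a cartilage lectin, at 325, 17.96 and 472, and ALDOC, an aldolase, at 353, 20.2 and 349. The HS samples also ran over a wide range in these genes, with 6.24, 51.1 and 163 for FRZB, 3.51, 89.1 and 254 for CLEC3A and 5.38, 44.6 and 104 for ALDOC. PPP1R1B, CYP2A10 and SNORD21 were the other 3 with replicate 2 lowest.

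Set directly against drug-loaded MNs, the other treated group, 0 of the 13287 genes were called by limma (0.0%), while 2009 had an unadjusted p under 0.05. Without 5-Fu injection replicate 2 the count was 12, and without drug-loaded MNs replicate 1 it was 1. A p that misses the threshold does not show that the treatments act alike, and the intervals of COL1A1, ADAM12 and HCST were wide. COL1A1 differed by a log2 fold change of -1.60 (95% interval -2.996 to -0.20, limma adjusted p = 0.299), and ADAM12 by -2.02 (-3.33 to -0.70, 0.25). HCST was higher after injection by 2.13 (0.76 to 3.49, 0.25), and NFKBIA by 1.10 (0.74 to 1.46, 0.161). These genes were among those called against HS in the same injected samples, so their intervals carry that selection. The intervals are also not adjusted for the number of genes tested. The drug form and route differed between the treatments.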

How the data were processed

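RNA of 12 rabbit ear samples (4 groups of 3) was poly(A)-selected and sequenced on an Illumina NovaSeq instrument per the labels and the study's methods. The authors deposited 1 table of FPKM values for 29587 genes. Its aligner, counting tool and genome build are not given in the sources used here, and coordinates are printed as the table gives them. All sample columns were matched to labelled samples. Each FPKM times gene length was a whole multiple of 1 read for 100% of values, within a tolerance of 0.02, and the deposited values already carried size factors of the median-of-ratios kind.

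Values were tested as log2(FPKM + 1) for the 13287 genes that averaged an FPKM of 1 or more, in 1 limma fit of all 12 samples (variance prior with trend, Benjamini-Hochberg adjustment, limma 3.58.1, R 4.3.3, tables with pandas 2.3.3 and figures with matplotlib 3.10.9 under Python 3.11.15). DEGs had an adjusted p under 0.05 and a log2 fold change above 1 in size. Fold changes on this scale understate the change of low genes. Scripts were tested on simulated data.

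Named genes were the 12 called genes with a symbol of largest change in each direction, key members and up to 4 called members of each of 37 gene lists (lowest and highest where none was called), and the 6 genes in each direction in which 5-Fu injection replicate 2 lay farthest from both others. Members and lists were chosen with earlier results of these data known, and the mitochondrially encoded list was added later. Of 1203 list genes 824 were found by symbol and 230 by the description in the table. Alternatives were the pseudocount, filter, normalization, variance model, read-based test, replicate block, 2 groups alone and each replicate left out. A domain column was not used. 95% intervals are from limma.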

Additional observations from a re-analysis of the deposited data

How the results depend on the processing

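The counts of DEGs depended on the settings and on which sample was left out. Against 68 rises and 236 falls, there were 19 and 74 with no filter on low values (with 1 gene in the contrast to drug-loaded MNs), 0 and 0 with the 2 groups alone, 164 and 421 with the adjusted p alone, 103 rises with sample weights and 125 after rescaling to total reads. Leaving out 1 replicate gave 0 to 303 rises and 0 to 500 falls, and 0 to 12 genes in the contrast to drug-loaded MNs. Of the 304 DEGs, 300 were also called without 5-Fu injection replicate 2. The cause of these differences was not tested. The other alternatives (pseudocount 0.1, mean FPKM of at least 5, no trend, quantile normalization, voom) stayed within 61 to 77 rises and 223 to 293 falls. Same-numbered HS and 5-Fu injection samples came from different rabbits, and their deviations correlated at -0.116, 0.00687 and -0.105. With a replicate block in the fit, limma called 23 rises and 76 falls. No gene named here changed the direction of a call under any alternative. The FPKM values rest on 10521472 to 14043667 reads on genes per sample and on 3 samples per group.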
